A study of Mus musculus with 14 samples.

Results

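RGS proteins (regulators of G protein signalling) are described here in natural killer (NK) cells through 3 of their genes, Rgs1, Rgs16 and Rgs2, out of 10210 genes in the NK count table. The 3 were chosen by their levels in these same NK libraries, so their differences between groups are given as a description, with a standard error and no test. NK cells are cytotoxic lymphocytes of the innate immune system. A receptor coupled to a G protein acts by loading the protein's alpha subunit with GTP, and the signal lasts until that GTP is hydrolysed. RGS proteins bind the loaded alpha subunit, speed the hydrolysis and so shorten the signal. In lymphocytes they are best known for damping chemokine receptors, which steer cells into, within and out of tissues. Rgs1, Rgs2 and Rgs16 belong to the R4 subfamily, small proteins made of little more than the RGS domain.

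The NK cells came from 3 groups of female BALB/c mice. One group was spleens of healthy mice (3 libraries). The second was spleens of mice carrying a mammary tumour of 4T1 cells, a BALB/c carcinoma line marked with GFP (4 libraries), and the third was the tumours themselves (4 libraries). Mice were 8 weeks old, and recipients received 100000 4T1-GFP cells in the mammary fat pad. The 4T1 tumours were grown from a single transplanted line, and the labels do not say how long they grew or whether a replicate was 1 mouse or a pool, so the spread between replicates may be partly technical. NK cells were enriched magnetically and then sorted as CD45+ NKp46+ cells without GFP, EPCAM, CD3, CD31 or CD14. Tumours were digested with 3 mg/ml collagenase A and DNase for 20 min at 37 °C, whereas spleens were crushed and lysed free of red cells on ice, so tissue and digestion cannot be told apart in any comparison of tumour with spleen.

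Totals of the 11 libraries ran from 559688 to 1966963 counts, and the limit set by 3 counts lay between 1.54 and 4.60 CPM (the count scaled to a common library total). All 12 NK markers on the list were in the table. Together they held 2.89 to 3.30% of counts in healthy spleen, 2.75 to 3.08% in tumour-bearing spleen and 1.96 to 2.28% in tumour libraries. Gzma, the largest of them, averaged 17090, 17390 and 13200 CPM in that order of groups. Not all were lower in tumours: Il2rb averaged 839, 1121 and 1449 CPM, whereas Ncr1 averaged 1593, 1351 and 835.5 CPM. The spleen libraries of both groups fell apart along the second principal component, with 15.3% of the variance. Healthy replicate 1, which had the fewest counts, and tumour-bearing replicates 1 and 2 lay at 12.55 or above, and the other 4 spleen libraries lay at -6.28 or below. These are called the first and second side below. The labels name no cause for the split, and values from each side alone are given where they differ.

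All 3 members lie on chromosome 1 of the mouse genome (GRCm38, called mm10 in the submitters' processing notes). Rgs2 occupies chr1:143999338-144004161 and Rgs1 chr1:144242296-144249242, both on the minus strand and 238.1 kb apart. They are part of a run of 5 RGS genes (Rgs2, Rgs13, Rgs1, Rgs21 and Rgs18) within 776.1 kb. Rgs16 lies 9.49 Mb further along, at chr1:153740349-153745468 on the plus strand. Each of the 3 genes has 5 exons in its principal GENCODE transcript. Of the 21 RGS genes on the family list, 11 are on chromosome 1, so position alone groups many RGS genes whatever their level in NK cells.

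The promoter windows are shown because Rgs2 is a well-known gene of the cAMP response in other cells, and because the members were high in the same libraries. Each window runs from 250 bases before to 50 bases after the start of a RefSeq transcript (GRCm38.p6), printed 5′ to 3′ on the gene's strand. Rgs2 is at chr1:144004100-144004399, minus strand, and Rgs16 at chr1:153740103-153740402, plus strand. Capitals mark TGACG, the core of the cAMP response element, and the CCAAT box, each searched on both strands.
Rgs2: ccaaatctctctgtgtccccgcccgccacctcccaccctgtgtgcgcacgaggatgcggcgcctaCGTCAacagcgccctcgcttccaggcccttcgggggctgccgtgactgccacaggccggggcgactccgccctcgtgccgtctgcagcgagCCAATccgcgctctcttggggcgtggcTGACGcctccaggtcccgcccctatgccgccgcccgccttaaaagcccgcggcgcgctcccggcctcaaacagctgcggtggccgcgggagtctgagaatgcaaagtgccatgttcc
Rgs16: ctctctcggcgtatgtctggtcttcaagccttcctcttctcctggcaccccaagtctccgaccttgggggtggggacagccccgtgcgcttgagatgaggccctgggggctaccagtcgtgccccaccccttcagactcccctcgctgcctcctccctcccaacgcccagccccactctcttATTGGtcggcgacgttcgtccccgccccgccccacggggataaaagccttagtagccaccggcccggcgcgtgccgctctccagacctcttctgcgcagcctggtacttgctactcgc
The Rgs2 window held 2 TGACG matches, starting 185 and 67 bases before the transcript start, and 1 CCAAT match 94 bases before it. The Rgs16 window held no TGACG and 1 CCAAT match, read as ATTGG, 68 bases before the start. Of 32851 mouse promoter windows of the same length, 20.8% held TGACG at least once, 5.01% at least 2 times, and 37.4% held CCAAT. These windows were not matched by GC content to those of Rgs2 and Rgs16. Neither window held the full element TGACGTCA (1.79% of windows), the AP-1 site TGANTCA (7.81%) or the E-box CACGTG (7.15%). TGACGTCA contains TGACG on both strands, so those counts overlap, and GC content was 70% for the Rgs2 window and 66% for the Rgs16 window. A match is a description of letters, not a shown binding site.

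Rgs1 encodes a regulator of Gi-coupled chemokine receptors in lymphocytes. Its level was 98.1, 62.3 and 39.4 CPM in the 3 healthy spleen libraries, 120, 123, 88.5 and 70.5 CPM in the 4 tumour-bearing spleen libraries, and 1268, 1012, 1099 and 1055 CPM in the 4 tumour libraries. Every tumour library was far above every spleen library, while the healthy and tumour-bearing spleens overlapped. The tumour mean was 1108 ± 112 CPM (SD, n = 4), against 100.4 ± 25.2 CPM (SD, n = 4) in tumour-bearing and 66.6 ± 29.6 CPM (SD, n = 3) in healthy spleen. This made a log2 fold change of 3.46 (SE 0.223, 11-fold) over tumour-bearing spleen and 4.11 (SE 0.268, 17.3-fold) over healthy spleen. Between the spleens the difference was 0.65 (SE 0.252). Within the spleens Rgs1 followed the split between libraries: the 3 of the first side read 98.1 to 123 CPM and the 4 of the second side 39.4 to 88.5 CPM. The log2 difference of tumour from tumour-bearing spleen was 3.19 against the first side and 3.75 against the second, and that from healthy spleen 3.48 and 4.39.

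Rgs16 encodes a regulator of Gi and Gq alpha subunits that appears in activated T cells. It stood at 9.20, 0.53 and 3.28 CPM in healthy spleen, at 20.5, 21.7, 25.1 and 20.1 CPM in tumour-bearing spleen, and at 151, 151, 135 and 210 CPM in tumours. The 3 groups did not overlap in CPM, and healthy spleen was lowest and tumour highest. The group means were 4.34 ± 4.43 CPM (SD, n = 3), 21.8 ± 2.26 CPM (SD, n = 4) and 162 ± 32.9 CPM (SD, n = 4). Tumour NK cells were higher than tumour-bearing spleen NK cells by a log2 fold change of 2.87 (SE 0.235, 7.32-fold).
Rgs16 was also higher in tumour-bearing than in healthy spleen, by a log2 fold change of 2.82 (SE 0.445, 7.04-fold). The healthy libraries held 6, 1 and 4 Rgs16 counts. Exact Poisson intervals at 95%, which cover counting error only, were 0.0135 to 2.96 CPM for replicate 2 and 3.37 to 20 CPM for replicate 1. The interval of replicate 1 overlaps that of every tumour-bearing spleen library, whose lower ends were 13.4 to 18.6 CPM. The fitted difference of tumour from healthy spleen, 5.69 (SE 0.378), is therefore imprecise, and ran from 4.86 without healthy replicate 2 to 6.53 without healthy replicate 1. It was 4.10 against the first side, which holds healthy replicate 1 alone, and 6.53 against the second. The difference between the spleens ran from 1.99 without healthy replicate 2 to 3.68 without healthy replicate 1. Among the tumour-bearing spleens both sides gave the same level, 20.5 and 21.7 CPM on the first and 25.1 and 20.1 CPM on the second.

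Rgs2 encodes a regulator with a preference for Gq alpha subunits. It was at 4.60, 7.98 and 4.92 CPM in healthy spleen, at 9.10, 6.11, 8.70 and 4.32 CPM in tumour-bearing spleen, and at 18.8, 23.1, 16.1 and 14.2 CPM in tumours. All 4 tumour libraries were above all 7 spleen libraries, and the spleen groups overlapped. These levels rest on 15 to 27 counts in a tumour library and 3 to 17 in a spleen library, so the Poisson intervals of single libraries overlap: the lowest tumour library spans 7.94 to 23.4 CPM and the highest tumour-bearing spleen library 4.70 to 15.9 CPM. The means were 5.83 ± 1.87 CPM (SD, n = 3) in healthy spleen, 7.05 ± 2.26 CPM (SD, n = 4) in tumour-bearing spleen and 18.04 ± 3.84 CPM (SD, n = 4) in tumours. The log2 fold change was 1.31 (SE 0.301, 2.48-fold) over tumour-bearing spleen and 1.49 (SE 0.354, 2.81-fold) over healthy spleen. Between the spleens it was 0.18 (SE 0.38). With the spleen libraries of the first side only, the log2 fold change of Rgs2 over healthy spleen was 1.895, where the 1 healthy library left held 3 Rgs2 counts.

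**Figure D1:**
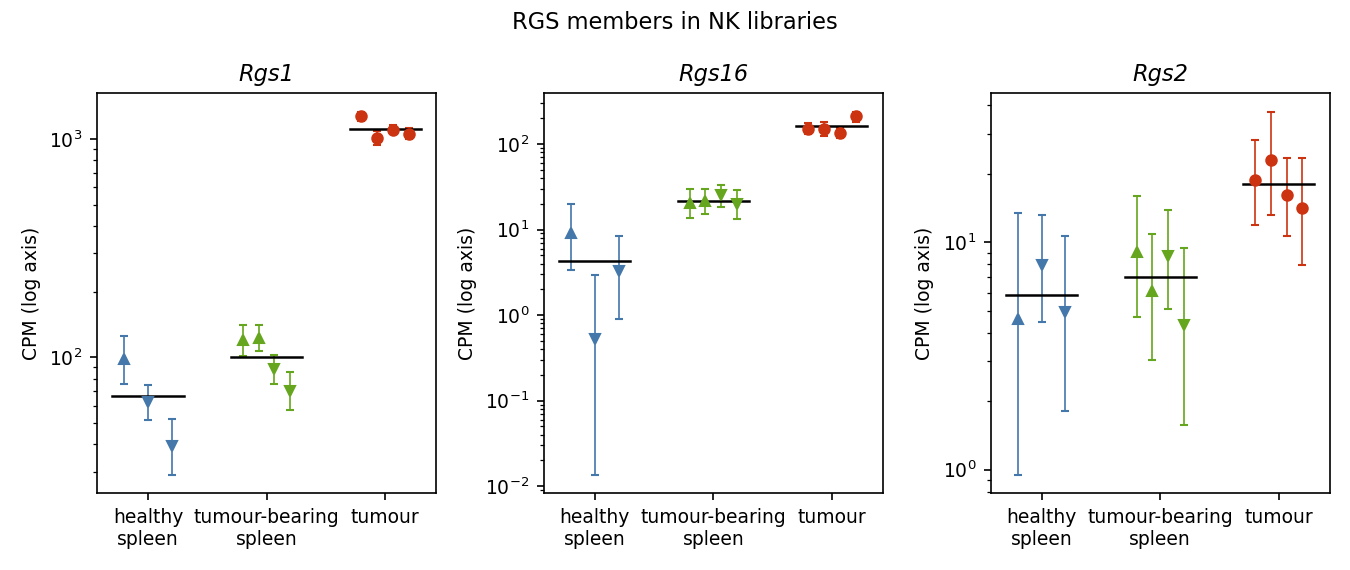
Level of Rgs1, Rgs16 and Rgs2 in each NK library, in CPM on a log axis, with exact Poisson intervals at 95% and the group mean as a line. Upward triangles are spleen libraries of the first side, downward triangles those of the second side and circles tumour libraries. Every tumour point lies above every spleen point. For Rgs16 alone the healthy points also lie apart from the tumour-bearing spleen points, though the interval of healthy replicate 1 overlaps theirs.

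All 3 members passed the filter on low counts and the threshold used for other genes (an adjusted p under 0.05 in edgeR over the 8471 genes tested, by the method of Benjamini and Hochberg) upward in tumour against tumour-bearing spleen. So did 15.8% of all genes tested there, and 13.2% passed downward. The members' groups did not overlap in that comparison, as for 16.5% of genes. Against healthy spleen all 3 again passed upward (16.5% of genes upward, 14% downward) without overlap (18.5% of genes). Both comparisons use the same tumour libraries. Between the spleens, 1 member, Rgs16, passed upward and had groups that did not overlap, beside 1.23% of genes that passed upward, 0.354% that passed downward and 6.52% with no overlap. Since the genes were listed for these values, nothing is read from those counts. By size of log2 fold change from the top, Rgs1 ranked 80 of 8471 in tumour against tumour-bearing spleen, Rgs16 124 and Rgs2 498. Between the spleens Rgs16 ranked 10, Rgs1 441 and Rgs2 2268.

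The share of upward calls depends on scaling. It was 54.5% of the calls in tumour against tumour-bearing spleen with TMM, 41.6% with upper-quartile scaling and 37.8% with library totals only, which shifted the median gene by -0.12 on the log2 scale. Against healthy spleen the same shares were 54.2%, 42.4% and 32.9%, with a shift of -0.18, and between the spleens the share went from 77.6% to 65.9% with library totals. The 3 members kept their direction in all 3 comparisons under each of these scalings.

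Of the other 18 RGS genes on the family list, 7 were in the NK table and 6 had enough counts to test. Of these 6, Rgs10 alone rose in tumour NK cells; it encodes a small regulator of Gi alpha subunits, of the R12 subfamily. It read 0, 8.51 and 8.20 CPM in healthy spleen, 9.10, 8.88, 8.19 and 8.63 CPM in tumour-bearing spleen, and 44.8, 40.4, 42.5 and 35.9 CPM in tumours. The tumour libraries stood apart from all spleen libraries, which were close to each other except for healthy replicate 1 with no Rgs10 count. The log2 fold change of Rgs10 came to 2.23 (SE 0.289, adjusted p = 7.51e-06) over tumour-bearing spleen and 2.61 (SE 0.35, adjusted p = 1.1e-05) over healthy spleen. Both calls held in every alternative, where alternatives here and below leave out the one that asks for more than a 2-fold change.

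Rgs14, an R12 regulator that also binds Ras-family GTPases, fell in tumour NK cells. Its mean was 119 ± 18.7 CPM (SD, n = 3) in healthy spleen, 106 ± 14.2 CPM (SD, n = 4) in tumour-bearing spleen and 62.8 ± 10.9 CPM (SD, n = 4) in tumours. The log2 fold change was -0.79 (SE 0.159, adjusted p = 0.000929) against tumour-bearing and -0.96 (SE 0.171, adjusted p = 0.000242) against healthy spleen, the latter not called with the first side only (adjusted p = 0.0802). Rgs19, of the RZ subfamily, fell from 166 ± 20.2 to 124 ± 12.7 CPM (SD, n = 4 each) against tumour-bearing spleen, a log2 fold change of -0.42 (SE 0.133, adjusted p = 0.0227). That call was lost with the second side only, without tumour replicate 1 and without tumour replicate 4 (adjusted p up to 0.0732). Against healthy spleen Rgs19 was not called (-0.33, adjusted p = 0.0939).

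Rgs3, another R4 gene, was at 138 ± 5.48 CPM in healthy spleen (SD, n = 3), 139 ± 8.47 CPM in tumour-bearing spleen and 130 ± 18.1 CPM in tumours (SD, n = 4 each), and was not called (log2 fold change of tumour from tumour-bearing spleen -0.09, SE 0.127, adjusted p = 0.633). Rgs18, known from platelets and part of the same chromosome 1 run as Rgs1 and Rgs2, had a log2 fold change of 1.11 (SE 0.47) on 4 to 14 counts a library and was not called (adjusted p = 0.0826). Rgs12 was not called either (0.85, SE 0.41, adjusted p = 0.129), and Rgs9, with 0 to 8 counts, was not tested. None of the 6 tested genes was called between the spleens. Over these 6 genes the median log2 fold change of tumour from tumour-bearing spleen was 0.38, with 1 called higher and 2 lower, beside a median of 0.00171 over all genes tested. By log2 fold change, Rgs3 was the tested R4 gene whose 3 groups lay closest together.

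**Figure D2:**
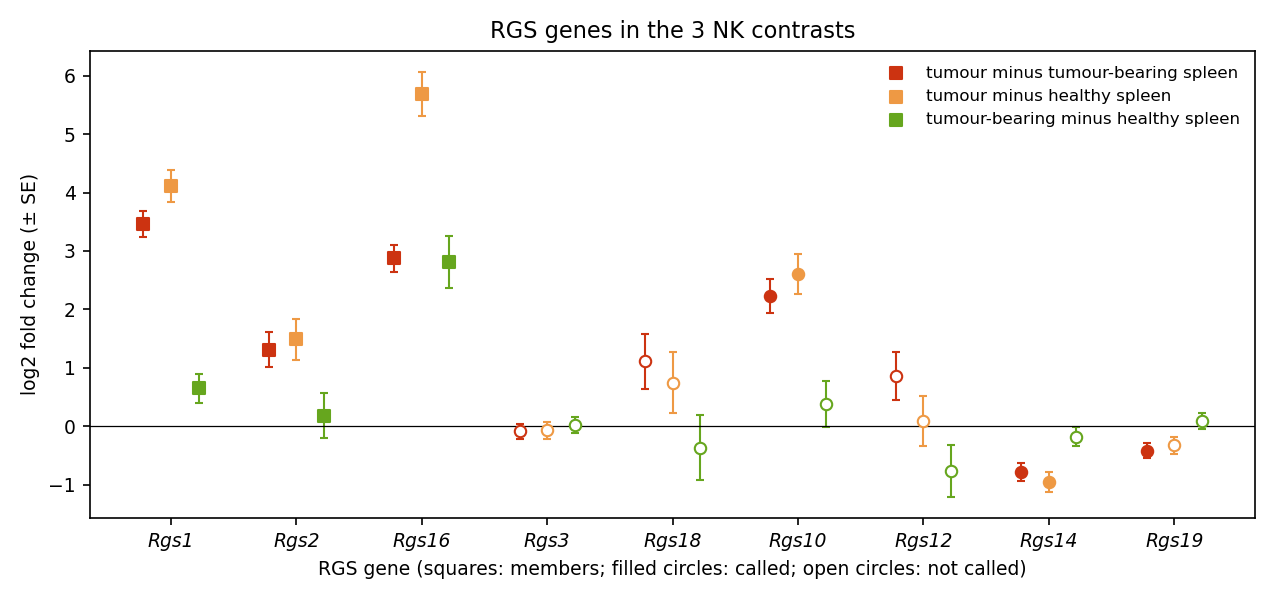
Log2 fold change with its SE for the 9 RGS genes tested, in 3 comparisons marked by colour. Squares are the members, filled circles other genes past the threshold and open circles genes that were not called; Rgs10 is the only other RGS gene called above 0.

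Receptors come first along the pathway. Of 42 G protein-coupled receptors listed for NK cells, 30 were tested, and 15 rose and 5 fell in tumour against tumour-bearing spleen (median log2 fold change 0.93). That is 66.7% called, where 29% of all genes tested were called and their median was 0.00171. The lists here and below were chosen with earlier results of these data known, so a share above that of all genes is a description only. Cxcr4, the CXCL12 receptor, rose from 41.1 ± 18.4 to 336 ± 82.3 CPM (SD, n = 4 each), a log2 fold change of 3.05 (SE 0.331). Ccr7 (4.37, SE 0.37), the oxysterol receptor Gpr183 (3.92, SE 0.34) and P2ry14 (2.98, SE 0.281) also rose. S1pr5, a receptor for sphingosine 1-phosphate that serves NK cell egress, fell from 365 ± 61.4 to 43.4 ± 6.50 CPM (SD, n = 4 each), a log2 fold change of -3.08 (SE 0.166). Cx3cr1 (-2.37, SE 0.202) and the chemerin receptor Cmklr1 (-1.54, SE 0.203) fell too.

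Of 29 G protein subunits listed, 15 were tested, and 3 rose and 1 fell (median 0.36). That is 26.7% called, near the 29% of all genes. Gna13, an alpha subunit, rose from 94.3 ± 11.1 to 421 ± 44.6 CPM (SD, n = 4 each), a log2 fold change of 2.15 (SE 0.134, adjusted p = 5.11e-10). Gna15, a Gq-class subunit of blood cells, rose by 0.97 (SE 0.128). Gna11, another Gq-class subunit, fell by 0.63 (SE 0.178). Gnas, the stimulatory subunit that drives cAMP synthesis, rose by 0.58 (SE 0.17), a call kept in 15 of 20 alternatives and lost, among others, with library totals only (highest adjusted p = 0.123). Gnai2, the main Gi subunit of lymphocytes and a substrate of Rgs1 and Rgs16, was at 1618 ± 213 CPM in tumour-bearing spleen and 1694 ± 183 CPM in tumours (SD, n = 4 each) and was not called (0.07, SE 0.141, adjusted p = 0.767).

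Other regulators of the pathway, such as receptor kinases and arrestins, gave 0 higher and 3 lower of 12 tested from a list of 22 (median -0.21), or 25% called beside 29% of all genes. The 3 were Arhgef1 (-0.50, SE 0.158), a protein with an RGS-like domain, the arrestin Arrb2 (-0.49, SE 0.158) and the receptor kinase Grk2 (-0.34, SE 0.119). None of the 3 was called without tumour replicate 1, without tumour replicate 2 or without tumour-bearing spleen replicate 4 (highest adjusted p 0.181, 0.0992 and 0.194).

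Of 43 effectors listed, 32 were tested, and 5 rose and 5 fell (median -0.0127), or 31.2% called, near the 29% of all genes. Pde4b, a phosphodiesterase that breaks down cAMP, rose from 47.9 ± 28.2 to 294 ± 55.3 CPM (SD, n = 4 each), a log2 fold change of 2.62 (SE 0.433). Rasgrp1 rose by 0.76 (SE 0.158) and Prkar1a, a regulatory subunit of protein kinase A, by 0.54 (SE 0.118). Rasgrp2, an activator of Rap1, fell by 1.52 (SE 0.143) and Rap1gap2, which switches Rap1 off, by 0.80 (SE 0.165). Plcb2, a phospholipase activated by G proteins, fell by 0.73 (SE 0.17), a call lost with the first side only (adjusted p = 0.0878).

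Genes known to respond to cAMP and calcium were called more often upward than downward: of 18 listed, 16 were tested, and 10 rose and 1 fell (median 1.16), or 68.8% called beside 29% of all genes. Crem, a cAMP-induced transcription factor, rose from 21.1 ± 13.0 to 445 ± 68.4 CPM (SD, n = 4 each), a log2 fold change of 4.42 (SE 0.457). Fosl2 (4.21, SE 0.576), Nr4a3 (3.96, SE 0.297) and Nr4a2 (3.45, SE 0.378) rose as well. Egr3 fell by 1.37 (SE 0.376), a call lost with the second side only and without tumour-bearing spleen replicate 2 (adjusted p up to 0.108). Over the 6 lists, without the members, 34 genes rose and 17 fell of 111 tested, which is 45.9% called beside 29% of all genes.

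**Figure D3:**
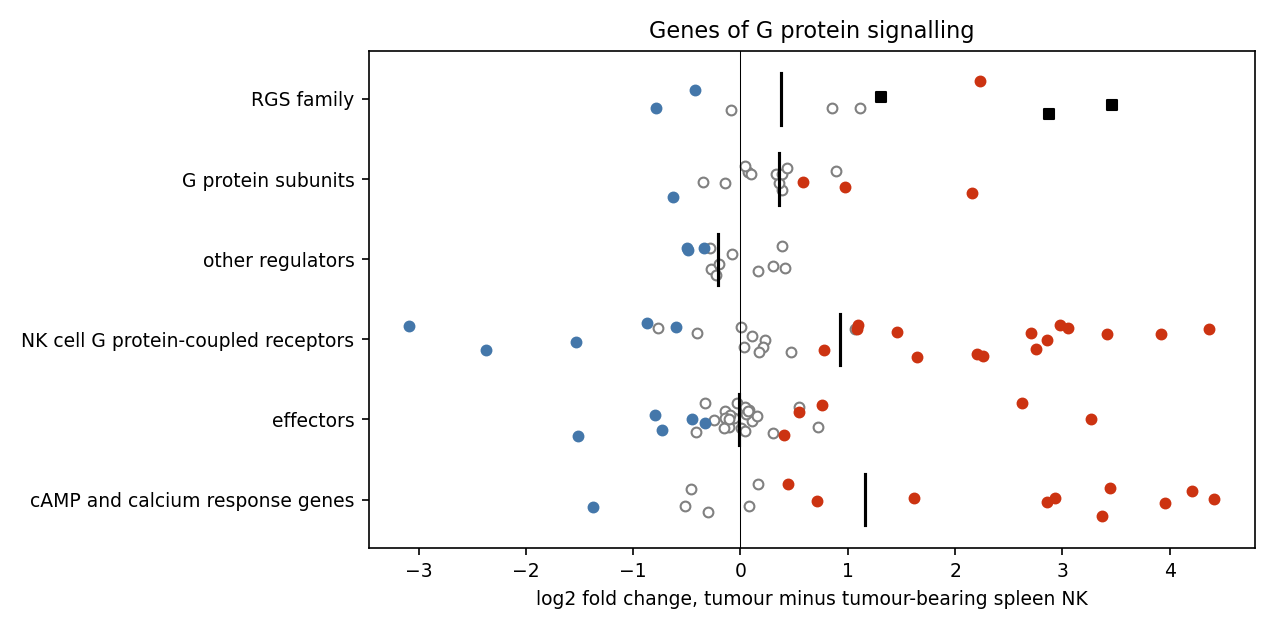
Log2 fold change of tumour from tumour-bearing spleen NK cells for every tested gene of the 6 lists, with the list's median without the members as a bar. Red and blue circles passed the threshold upward and downward, open circles did not, and black squares are Rgs2, Rgs16 and Rgs1; the receptor list holds the lowest value, S1pr5 at -3.08, and the cAMP and calcium list the highest, Crem at 4.42.

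Against healthy spleen, with the same tumour libraries, the lists gave 38 genes higher and 21 lower of 111, which is 53.2% called beside 30.5% of all genes. Receptors counted 16 higher and 7 lower of 30 (76.7%) and response genes 11 and 0 of 16 (68.8%). Subunits counted 3 and 1 of 15 (26.7%), other regulators 1 and 4 of 12 (41.7%) and effectors 6 and 8 of 32 (43.8%). Gna13 was higher by 2.35 (SE 0.154), Ccr7 by 3.97 (SE 0.422), Cxcr6 by 2.85 (SE 0.339), Pde4b by 2.85 (SE 0.513) and Crem by 4.85 (SE 0.563), while S1pr5 was lower by a log2 fold change of -3.50 (SE 0.174). P2ry10 was higher by 3.04 (SE 0.767), a call lost without healthy replicate 2 and without healthy replicate 3 (adjusted p up to 0.0732). Ric8a, a chaperone of G alpha subunits, fell by 0.65 (SE 0.141) and was called in every alternative.

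Between the spleens 3 genes of the 6 lists rose and 3 fell of 111, which is 5.41% beside 1.58% of all genes. The higher ones were Cx3cr1 (1.60, SE 0.209), Egr3 (2.69, SE 0.487) and Egr2 (2.17, SE 0.378), and the lower ones Gpr25 (-2.12, SE 0.248), Tbxa2r and Rap1gap2 (-0.74, SE 0.166). Cx3cr1 rose from 44.5 ± 5.44 CPM in healthy (SD, n = 3) to 133 ± 29.1 CPM in tumour-bearing spleen (SD, n = 4), a step upward in the comparison where Rgs16 also stood higher. Only Cx3cr1 and Gpr25 were called in every alternative, and without healthy replicate 2 the calls among the lists fell from 6 to 2 and over all genes from 134 to 42. With the side as a block there were 15 and 691.

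Genes of the immediate early and heat shock response, many of which are known to rise during warm tissue digestion, were read beside these results. Of 28 listed, 27 were tested, and 23 rose and 1 fell in tumour against tumour-bearing spleen, with a median log2 fold change of 1.83 and 88.9% called beside 29% of all genes. Fosb rose by 5.17 (SE 0.398), Hspa1a by 4.40 (SE 0.531) and Atf3 by 3.47 (SE 0.321). The 1 gene that fell was the heat shock gene Hsph1 (-1.193). Against healthy spleen 23 rose and 0 fell, with a median of 2.50 and 85.2% called beside 30.5%. Between the spleens, neither of which was digested, 4 rose and 0 fell, with a median of 0.45 and 14.8% called beside 1.58%. The 4 were Egr1 (1.97, SE 0.28), Jun (1.64, SE 0.284), Hsph1 (1.37, SE 0.189) and Dusp2 (0.99, SE 0.157). All 4 were called in every alternative. The part of digestion was not tested, for the members' levels in tumours or for the 6 lists, the cAMP and calcium genes included.

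Markers of other cells held far less than NK markers, and they did not all go the same way. Of 6 mast cell and basophil markers listed, 2 were in the NK table. Together they held 0.0719 to 0.0967% of counts in tumour-bearing spleen and 0.0141 to 0.0208% in tumours. Cma1 averaged 853 CPM in tumour-bearing spleen and 179 CPM in tumours. Mcpt8, not tested, went the other way, at 0.497 and 1.28 CPM. Of 11 T cell markers listed, 3 were in the NK table. Cd3d averaged 27.9 CPM in healthy spleen, 79.8 CPM in tumour-bearing spleen and 49.6 CPM in tumours. From tumour-bearing spleen to tumours, Cd3g (45.2 and 31.8 CPM, adjusted p = 0.107) was not called, and Cd4 (1.09 and 1.81 CPM) was not tested. Of 9 dendritic cell markers listed, 2 were in the NK table. Itgax (268 and 197 CPM) was lower in tumours than in tumour-bearing spleen. Zbtb46, the other dendritic cell marker (4.50 and 15.3 CPM), was higher in tumours. So was Pecam1 (84.2 and 168 CPM), the only 1 of 5 listed endothelial cell markers in the NK table. The 8 macrophage and monocyte markers in the table, of 12 listed, summed to 0.00107 to 0.00253% of counts in healthy spleen, 0.00179 to 0.00285% in tumour-bearing spleen and 0.00409 to 0.0234% in tumours. Csf1r was at 0 in every spleen library and ranged from 0 to 7.175 CPM in tumours, with a median of 0.721 CPM. The highest sum was in tumour replicate 3, and the other tumour libraries had 0.00409 to 0.00547%. Rgs1 was 1099 CPM in tumour replicate 3 and 1012 to 1268 CPM in the others, and its log2 fold change over tumour-bearing spleen was 3.46 without that library. Rgs16 and Rgs2 gave 2.94 and 1.35 without it.
The 4 neutrophil markers of 8 listed summed to 5.63e-05 to 0.000893%, 6.98e-05 to 0.00143% and 0.00555 to 0.0153% in healthy spleen, tumour-bearing spleen and tumours. In tumours S100a9 averaged 56.6 CPM, S100a8 25 CPM and Retnlg, at 0 in every spleen library, 5.93 CPM, while Ngp averaged 1.32 CPM in tumour-bearing spleen and 0.236 CPM in tumours. The highest sum was in tumour replicate 2, which had the fewest counts of the tumour libraries. Rgs2 had its highest level there, 23.1 CPM, on 16 counts with a 95% Poisson interval of 13.2 to 37.5 CPM. That interval holds the Rgs2 levels of the other tumour libraries, 14.2 to 18.8 CPM. Without tumour replicate 2 the log2 fold change of Rgs2 over tumour-bearing spleen was 1.204. The 2 carcinoma markers of 7 listed, Epcam and Cdh1, summed to at most 0.000357% in spleens and 0.0025 to 0.0051% in tumours. The part of these cells in the members' levels was not tested, and in bulk RNA fewer cells of a type and less RNA per cell cannot be told apart.

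Across the 11 libraries the members' levels went together, with Pearson r of log2 CPM of 0.917 for Rgs1 with Rgs16, 0.903 for Rgs1 with Rgs2 and 0.777 for Rgs2 with Rgs16. These values describe 3 groups of shared tissue and carry no test. The genes most like Rgs1 were Litaf (r = 0.991), Sft2d2 (0.989), Ifitm1 (0.989), Bhlhe40 (0.989) and Txndc11 (0.988). Litaf averaged 21.7, 37.1 and 583 CPM in healthy spleen, tumour-bearing spleen and tumours, with a log2 fold change of 1.03 between the spleens beside 0.65 for Rgs1.

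The genes most like Rgs16 were Ceacam16 (r = 0.973), Samsn1 (0.967), Plk3 (0.966), Bcl2a1b (0.966) and Irf8 (0.964). They stepped up in both spleen and tumour: Plk3, a stress-responsive kinase, averaged 8.73, 34.2 and 114 CPM, and Irf8, a transcription factor of the interferon family, 460, 885 and 2042 CPM in the same order of groups. The genes most like Rgs2 were Nr4a2 (r = 0.963), Ccnyl1 (0.958), Prdx6 (0.951), Pim3 (0.95) and Gem (0.95). Nr4a2, a nuclear receptor on the cAMP and calcium list, averaged 27.6, 49.2 and 541 CPM.

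**Figure D4:**
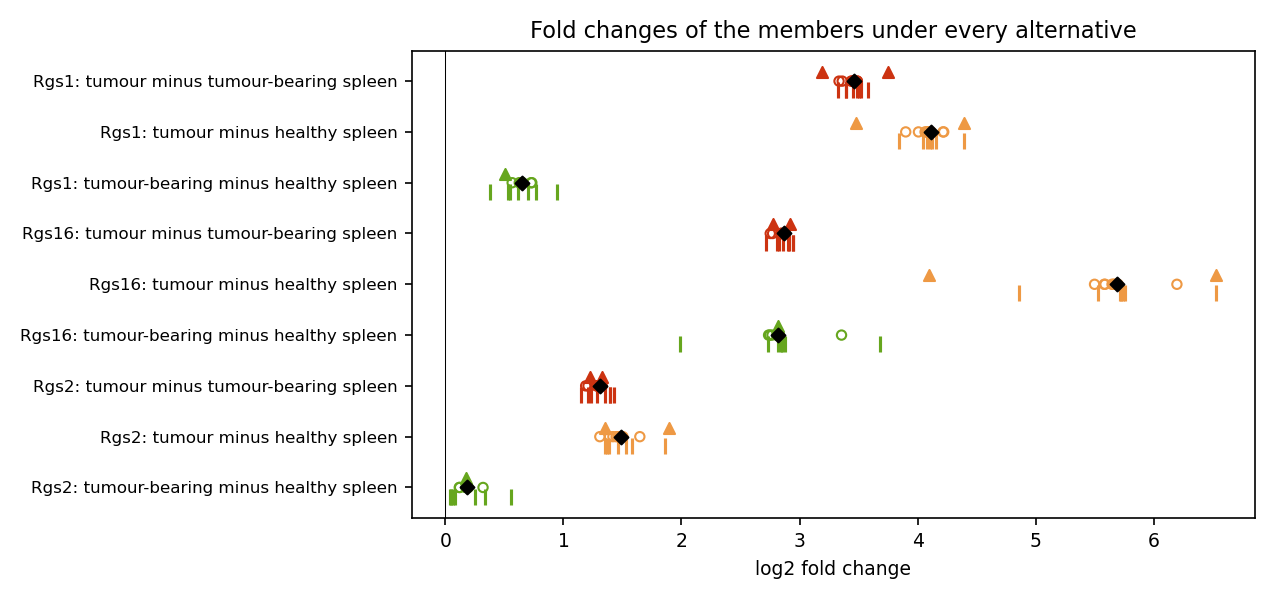
Log2 fold change of each member in each comparison under every alternative analysis. The black diamond is the value given above, ticks leave out 1 library, triangles use the spleen sides and circles are other scalings, filters or tools; no value is below 0, and the values spread most for Rgs16 against healthy spleen.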

How the data were processed

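Expression was measured by 3' end RNA sequencing of polyA RNA in 11 NK libraries. The deposited values are counts per gene symbol; per the submitters' processing notes bcl2fastq, STAR 2.4.2a and HTSeq were used with build mm10. Annotation, strand and use of molecular identifiers are not given in the sources used here. The lowest maximum of any listed gene was 6 counts, and totals are sums over listed genes. A run of spaces stood for a tab between tumour replicates 3 and 4 in the header, and columns were read by position.

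Genes were kept by filterByExpr (8471 of 10210) and fitted in edgeR 4.0.16 (R 4.3.3) with TMM scaling and 1 robust quasi-likelihood model over the 3 groups. P-values were adjusted by Benjamini-Hochberg over all genes tested, and genes were called under 0.05. The SE is the log2 fold change divided by the square root of F. CPM use TMM-scaled totals. The same steps were run on simulated data with known changes in tumour libraries only. The simulation held no split between spleen sides, so it cannot show error rates under that split. Alternatives covered scaling, filters, DESeq2 1.42.0, limma 3.58.1 voom, a replicate block, the spleen sides and leaving out each library. Libraries of a group correlated at 0.916 to 0.978.

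Members, gene lists and spleen sides were chosen with earlier results of these data known. From each list but the RGS family, named genes were drawn from at most 4 called genes per direction and comparison. These had the largest fold change and a mean of 20 CPM or more in the higher group. Not all of them are named. Gnai2, which was not called, and Tbxa2r, below 20 CPM, were named outside this rule. For each member the 5 genes with the highest Pearson r of log2 CPM (prior count 2) were named, leaving out predicted genes. Genes without a row in the table were not analysed here. Promoters came from RefSeq (7 of the 10 RGS genes in the table, 2 of the 3 members) and positions from GENCODE M21. Intervals and the 3-count limit cover counting error only.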

Additional observations from a re-analysis of the deposited data

Results flagged for a closer look

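The table of sCAF libraries, cancer-associated fibroblasts sorted from 4T1 tumours as PDPN-negative cells, enters no comparison above, and 2 of the 3 members had counts there. Rgs16 averaged 103.9 CPM (SD 54.4, n = 3), with 41.7, 127.5 and 142.7 CPM in the 3 libraries. Rgs2 averaged 2.556 CPM (SD 0.505, n = 3), on 7, 3 and 3 counts, so 2 of its 3 libraries were at the limit that 3 counts set and not above it. Rgs16 was above that limit in all 3. The table was scaled separately from the NK table, so no difference from NK cells is given, and Rgs1 was not analysed there. No library stood apart within its group by Dixon's test in 18 tests of the members and other RGS genes in the 2 groups of 4.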

How the results depend on the processing

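The members kept their direction in every alternative. Against tumour-bearing spleen the ranges were 3.19 to 3.75 for Rgs1 (3.753 with the second side only), 1.15 to 1.43 for Rgs2 and 2.72 to 2.94 for Rgs16. Against healthy spleen Rgs1 was 3.478, Rgs2 1.895 and Rgs16 4.097 with the first side only, and Rgs16 6.533 with the second. Leaving out 1 library gave 1.35 to 1.858 for Rgs2 and 4.862 to 6.532 for Rgs16, and 1.991 to 3.681 for Rgs16 between the spleens. Requiring more than a 2-fold change left 391, 475 and 8 genes called in the 3 comparisons and 25, 27 and 1 on the lists. Calls against healthy spleen were 1472 with the first side only. Between the spleens the side as a block gave 691 calls and 15 on the lists, and leaving out 1 library 42 to 137 and 2 to 7, lowest without healthy replicate 2; without healthy replicate 3 there were 67. The cause was not tested. Of the 51, 59 and 6 list genes called, 38, 38 and 2 were called in every alternative but the 2-fold minimum, and none changed sign.

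Whether replicate numbers pair tumour with tumour-bearing spleen libraries could not be decided, as each group holds only 4 libraries and the spleen ones split by side. Same-numbered libraries correlated at -0.0471 to 0.288 in their deviations from the group means, and 2 of the 4 tumour libraries correlated best with their own number. With the replicate number as a block there were 1452 higher and 1173 lower calls against tumour-bearing spleen, 1469 and 1178 against healthy spleen, and 97 and 18 between the spleens. Depth limits Rgs2 most, at 3 to 27 counts a library, and the level of Rgs16 in healthy spleen, at 1 to 6.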
